A study of Homo sapiens with 2 samples.

Results

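To describe the interferon-stimulated genes of CARM1-expressing ovarian cancer cells and of cells edited at CARM1, the RNA-Seq counts of 43 listed genes were examined in A1847 cells, with 1 parental and 1 CARM1 KO library. A1847 is an established human ovarian cancer cell line with high CARM1, and CARM1 (PRMT4) is a protein arginine methyltransferase. The parental library is labelled CARM1 wild type. The CARM1 KO library comes from a clone made with a lentiviral CRISPR vector and a guide RNA to CARM1, and the labels give no control transduced with an empty vector. Both were cultured in the same medium, and the labels name no interferon or other stimulus. The 43 genes are a list of known interferon-stimulated genes, matched by Ensembl identifier to the GENCODE annotation lifted to GRCh37. All 43 were found among the 57736 genes of the table, and 38 of them had at least 10 reads in both libraries together.

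Interferons are secreted proteins through which a cell signals infection. Type I interferons bind the receptor pair IFNAR1 and IFNAR2, whose kinases JAK1 and TYK2 activate STAT factors such as STAT2. With IRF9 these form the factor ISGF3, which binds the interferon-stimulated response element (ISRE) in promoters, while interferon gamma acts mainly at GAS elements. The induced genes encode sensors of viral nucleic acid, proteins that block viral entry, translation or replication, and feedback regulators. Many tumour cells also express some of them without added interferon, and DNA in the cytosol can induce them through CGAS and STING1.

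The parental library held 30741953 reads, and the CARM1 KO library held 32300391. Counts were scaled by TMM, a method that corrects for differences in RNA composition between libraries, and a fold is the ratio of scaled counts. A gene was called higher or lower when this fold was above 3 in that direction, the fold threshold of the study. With 1 library per group, no difference has a replicate check and no p-value is given. Each 95% interval is an exact binomial one and reflects the error of counting alone. For CARM1, 975 parental and 380 CARM1 KO reads were counted, 2.63-fold fewer after scaling (interval 2.33 to 2.97), so its transcript remained detectable. RNA counts do not measure CARM1 protein. The paper describes the clone as a CARM1 knockout and shows blots of CARM1 protein in parental and knockout cells. It also reports lower levels of methylated BAF155, a protein that CARM1 methylates. Of the markers listed for carcinoma cells, KRT8, KRT18, PAX8 and EPCAM had more than 50 reads in each library. So had VIM, which is listed with them but also marks mesenchymal cells. In parental and CARM1 KO cells, KRT8 had 17600 and 70370 reads and PAX8 had 311 and 1149. KRT19 had 45 and 0 reads, CDH1 had 3 and 53, WT1 had 8 and 1, and MUC16 had 0 and 1. The libraries stood apart in other lineage genes, for example in PDGFRA, with 14326 and 2 reads. Of the 8 leukocyte markers, CD3E had 0 reads in both libraries, PTPRC had 6 and 0 reads, and CD68 held most of the reads. The list summed to 13.9 and 53.0 RPM (TMM-scaled reads relative to a fixed library total), and without CD68 it came to 32 and 47 reads. Fibroblast markers summed to 467 and 16.9 RPM, of which PDGFRA gave nearly all in parental cells and COL1A1, with 131 and 537 reads, nearly all in CARM1 KO cells. Endothelial markers summed to 1 and 2 reads. In bulk RNA, fewer cells of a kind and less RNA per cell cannot be told apart, and the part of these differences in the results below was not tested.

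The data showed 14 of the 38 members with at least 10 reads higher and 4 lower in CARM1 KO cells, with the other 20 within 3-fold. The higher members were GBP2, OASL, SAMD9L, IFI44, SAMD9, GBP1, IFIH1, STING1, IRF7, MX1, CGAS, HERC5, MX2 and IFI6. IFIT1, IFITM1, USP18 and IFI44L were the lower ones. The higher members came to 36.8% of the 38, where 12.8% of all 18563 tested genes and 12.7% of the 14140 tested protein-coding genes were called higher. The lower members came to 10.5%, near the 11.7% of all tested genes and the 9.21% of protein-coding genes called lower, and this share is therefore no result about the list. Among genes with at least 50 reads, 37.8% of 37 members were higher against 11.4% of all such genes, and 8.11% were lower against 8.39%. The median fold of the 38 members was 2.24 (log2 of 1.17), while that of all tested genes was 0.979 (log2 of -0.03). The quartiles of the members were log2 folds of -0.25 and 2.05, and the range was -3.31 to 4.23. Of the members that passed the minimum, GBP2 and OASL had under 10 reads in parental cells and IFI44L had under 10 reads in CARM1 KO cells.

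**Figure D1:**
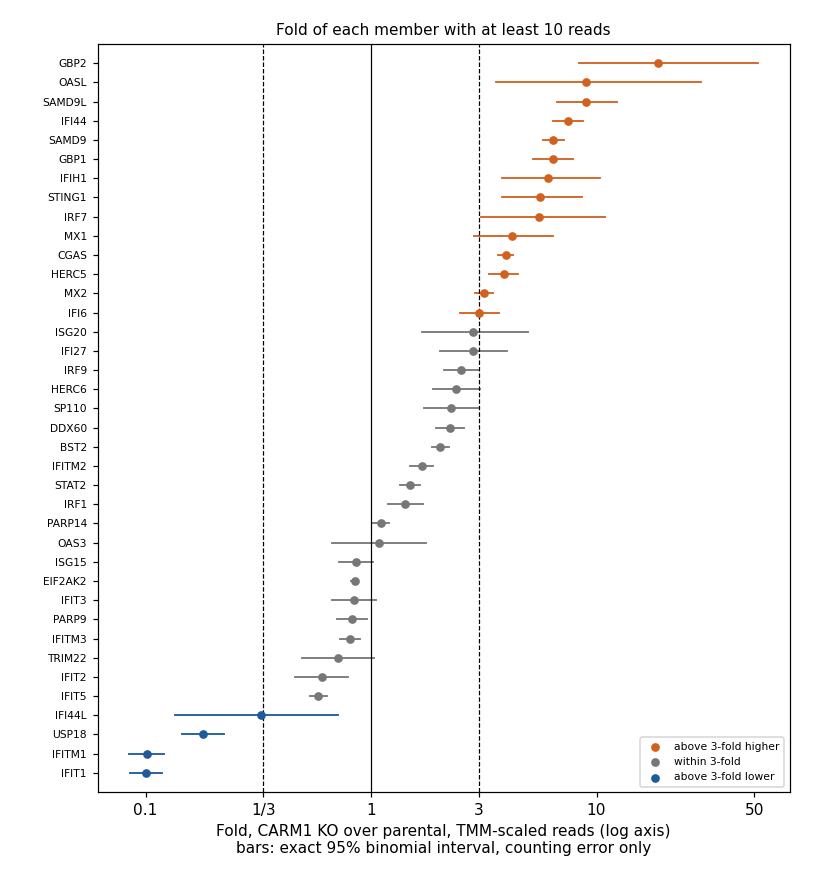
Fold of CARM1 KO over parental TMM-scaled reads on a log axis for the 38 members with at least 10 reads, with exact 95% binomial intervals as bars (counting error only) and dashed lines at 3-fold. The 14 higher members reach from IFI6 at 3.02 to GBP2 at 18.7, and IFIT1, IFITM1 and USP18 lie apart from the other members on the lower side.

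The DNA sequence before the start sites was described next. Sequence was not used to choose the members, but the list holds known interferon-stimulated genes, a class that ISGF3 acts on through the ISRE. The share of members with this motif is therefore a description and no independent result. RefSeq promoters of build GRCh38.p14, from 250 bases before to 50 bases after each start, were found for 32 of the 43 members, in 43 windows. No entry was used for IRF7, CGAS, STING1, OAS2, OASL, IFIT2, IFITM2, MX2, GBP2, USP18 and TRIM22. The ISRE core, taken as GAAA repeated after a gap of 2 bases of any kind, was searched on both strands. It was present in 27 of the 43 member windows (62.8%) and in 1255 of all 35116 promoter windows (3.57%). The GAS motif TTCNNNGAA, which reads the same on both strands, was present in 11 member windows (25.6%) and in 7.66% of all windows. By call, the ISRE core was found for 3 of 3 lower members with a window, for 7 of 8 higher members and for 12 of 17 members within 3-fold. Members on both sides of the comparison therefore carried the same core. The GAS motif was found for 1 lower member, 1 higher member and 7 members within 3-fold. A match describes these letters only and does not show that a factor was bound.

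The stretches that hold the core are printed for the called members, 5′ to 3′ on the strand of the gene, with each ISRE core in capitals (on the other strand GAAA reads as TTTC). They hold up to 25 bases on either side of the cores and are shortened past the start site. The lower members IFIT1, IFITM1 and IFI44L read:
IFIT1 (chr10:89392482-89392554, plus strand): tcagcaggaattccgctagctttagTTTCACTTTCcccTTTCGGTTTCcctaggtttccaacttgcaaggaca
IFITM1 (chr11:313975-314043, plus strand): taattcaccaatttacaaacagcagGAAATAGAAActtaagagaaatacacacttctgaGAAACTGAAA
IFI44L (chr1:78620259-78620409, plus strand): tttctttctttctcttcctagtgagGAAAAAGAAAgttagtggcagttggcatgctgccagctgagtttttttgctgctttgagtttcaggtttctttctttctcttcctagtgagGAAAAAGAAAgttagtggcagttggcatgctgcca

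The higher members GBP1, IFI44, SAMD9, IFIH1, HERC5, MX1 and IFI6 read:
GBP1 (chr1:89065301-89065360, minus strand): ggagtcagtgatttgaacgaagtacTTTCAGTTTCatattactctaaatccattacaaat
IFI44 (chr1:78649746-78649788, plus strand): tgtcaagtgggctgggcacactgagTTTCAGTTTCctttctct
SAMD9 (chr7:93118081-93118140, minus strand): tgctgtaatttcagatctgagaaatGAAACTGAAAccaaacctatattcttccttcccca
IFIH1 (chr2:162318685-162318868, minus strand): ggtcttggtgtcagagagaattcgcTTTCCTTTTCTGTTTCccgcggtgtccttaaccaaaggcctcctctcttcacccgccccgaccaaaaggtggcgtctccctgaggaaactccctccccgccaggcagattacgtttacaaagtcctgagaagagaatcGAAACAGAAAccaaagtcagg
HERC5 (chr4:88456969-88457079, plus strand): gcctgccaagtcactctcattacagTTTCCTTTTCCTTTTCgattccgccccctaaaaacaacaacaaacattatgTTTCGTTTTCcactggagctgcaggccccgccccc
MX1 (chr21:41420544-41420578, plus strand): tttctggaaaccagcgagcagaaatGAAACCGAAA
IFI6 (chr1:27672251-27672373, minus strand): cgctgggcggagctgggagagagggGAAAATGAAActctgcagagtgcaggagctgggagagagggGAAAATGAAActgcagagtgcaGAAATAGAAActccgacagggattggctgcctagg

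ISG15, whose level differed little between the libraries, is shown for comparison with its overlapping cores:
ISG15 (chr1:1013359-1013424, plus strand): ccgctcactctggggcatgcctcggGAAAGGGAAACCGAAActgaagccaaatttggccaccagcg

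IFIT1 carried its cores from base -116 to base -94 relative to the start, and ISG15 carried them from base -113 to base -98. The printed MX1 core lay from base 12 to base 21 after the start, and the window of another MX1 start held a core from base -196 to base -187.

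The transcription factors of the list were all detected in both libraries. IRF7, the factor that amplifies interferon production, had 13 reads in the parental and 74 in the CARM1 KO library, a 5.56-fold higher level (interval 3.06 to 10.9). IRF9, the DNA-binding part of ISGF3, had 195 and 499 reads (2.50-fold, interval 2.11 to 2.96). STAT2, its partner, had 599 and 914 reads, a fold of 1.49. IRF1, which mediates much of the interferon gamma response, had 220 and 320 reads, a fold of 1.42. Each of the 4 counts was higher in CARM1 KO cells, where 9081 of all 18563 tested genes had a fold above 1. IRF7 alone passed 3-fold, beside 12.8% of all tested genes called higher, so 1 call among 4 genes is no result about these factors. IRF9 shares 1544 bases of exon with the gene ENSG00000259529 on the same strand, which had 45 and 30 reads, so the division of reads between them is uncertain.

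Among the 5 sensors and adaptors, CGAS, STING1 and IFIH1 were higher and the other members lay within 3-fold, where 12.8% of all tested genes were called higher and 11.7% lower. CGAS, the cytosolic DNA sensor that makes the messenger cGAMP, had 840 reads in the parental and 3404 in the CARM1 KO library. This was a 3.96-fold higher level (interval 3.67 to 4.27). STING1, the receptor of cGAMP, had 30 and 173 reads, and its fold was 5.63 (interval 3.81 to 8.60). CGAS and STING1 were thus both higher in the same library. STING1 stayed a low transcript at 1.13 RPKM (RPM divided by kilobases of exon) in CARM1 KO cells, where CGAS had 25.6 RPKM. TBK1 and IRF3, pathway genes outside the list that are also part of this route, were lower, with folds of 0.794 and 0.423. IFIH1 (MDA5), a sensor of long double-stranded RNA, rose from 20 to 125 reads (6.10-fold, interval 3.79 to 10.3). DDX60, a helicase linked to RNA sensing, had 292 and 669 reads, a fold of 2.24. EIF2AK2 (PKR), the kinase that stops translation on double-stranded RNA, had 5346 and 4626 reads and was the most counted member in both libraries. The difference was 1.18-fold towards the parental library and within the 3-fold limit.

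**Figure D2:**
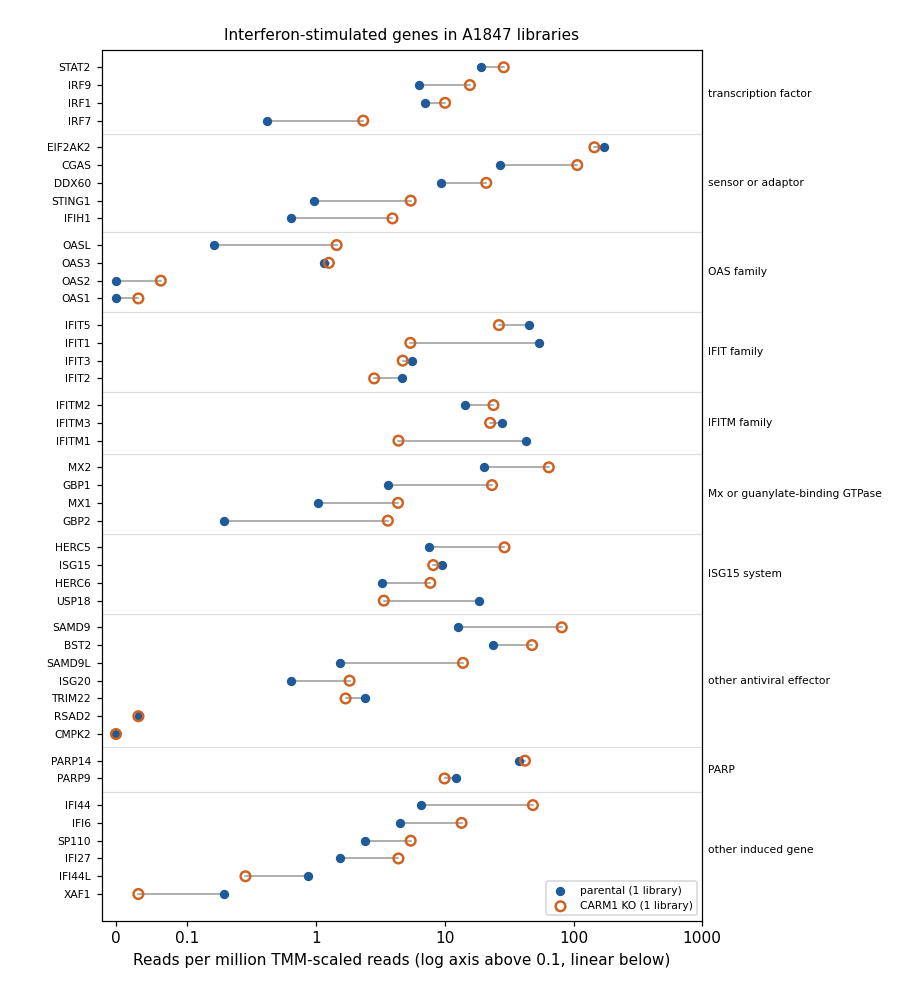
RPM (TMM-scaled) of all 43 members in the parental (filled) and CARM1 KO (open) library, grouped by role, on an axis that is logarithmic above 0.1 and linear below. All 4 Mx and guanylate-binding GTPases lie to the right in CARM1 KO cells, while IFIT1 moves from 53.7 to 5.39 RPM and USP18 from 18.6 to 3.36 RPM.

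The IFIT proteins bind viral RNA and block its translation. Of the 4 members, IFIT1 was called lower in CARM1 KO cells and none was higher. Over all tested genes, 11.7% were called lower and 12.8% higher, so the absence of a higher call among 4 genes is no result about the family. IFIT1, which recognises RNA without a methylated cap, is found at chr10:91152303-91166244 of GRCh37 (plus strand). It had 1671 reads in the parental and 172 in the CARM1 KO library and was 9.95-fold lower (interval 8.50 to 11.7). The other members of the family differed less. IFIT5 had 1402 and 839 reads, 1.71-fold lower, and IFIT2 had 145 and 90 reads, 1.65-fold lower. IFIT3, a partner of IFIT1, had 174 and 150 reads, a 1.19-fold lower level whose interval (0.949 to 1.49) held 1. IFIT1 and IFIT5 had like counts in parental cells but differed in CARM1 KO cells. The non-induced copy IFIT1B had 0 reads in both libraries. IFIT2 and IFIT3 share 65 and 94 bases of exon with LIPA on the opposite strand, and whether the counting used strand is not given in the sources used here. IFIT2 also shares 524 bases with ENSG00000232110 on its own strand, which had 47 and 2 reads.

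The IFITM proteins sit in cellular membranes and hinder viral entry. IFITM1 is found at chr11:310041-315272 of GRCh37 (plus strand), between IFITM2 and IFITM3. IFITM1 had 1339 reads in the parental and 139 in the CARM1 KO library, a 9.86-fold lower level (interval 8.28 to 11.8). IFITM2 went the other way with 444 and 761 reads, a fold of 1.67 (interval 1.49 to 1.89). IFITM3 had 871 and 717 reads and was 1.24-fold lower. These genes are similar in sequence, to a degree not measured here, so the division of reads between them by RSEM is uncertain. Their sum, which does not depend on that division, was 2654 and 1617 reads, 1.68-fold lower in CARM1 KO cells.

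All 4 antiviral GTPases of the list were higher in CARM1 KO cells, where 12.8% of all tested genes were called higher. MX1, which acts on influenza and other viruses, had 32 and 138 reads (4.21-fold, interval 2.85 to 6.40). MX2, which restricts HIV, had 630 and 2048 reads (3.18-fold, interval 2.90 to 3.48). Both intervals reached below 3-fold. The guanylate-binding proteins, which attack vacuoles of intracellular pathogens and respond strongly to interferon gamma, showed larger folds. GBP1 had 113 and 741 reads, a 6.41-fold higher level (interval 5.25 to 7.88). GBP2 had 6 reads in the parental and 115 in the CARM1 KO library, and its 18.7-fold difference rests on few parental reads (interval 8.34 to 52.1). GBP3, a close copy of GBP1 that is no member of the list, had 170 and 1146 reads, and the sum of GBP1 and GBP3 was 6.51-fold higher. GBP5, the nearest protein-coding gene with at least 50 reads beyond GBP2, had 74 and 15 reads, a lower level than in parental cells with a fold of 0.198.

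The ISG15 system attaches the ubiquitin-like protein ISG15 to other proteins. ISG15 itself had 295 and 259 reads, and the interval of its fold (0.723 to 1.02) held 1. HERC5, the main ISG15 ligase in human cells, had 234 and 927 reads, 3.87-fold higher in CARM1 KO cells (interval 3.35 to 4.49). HERC6, its neighbour, had 101 and 246 reads, a fold of 2.38. USP18 removes ISG15 and also restrains signalling at the receptor subunit IFNAR2. It had 579 reads in the parental and 107 in the CARM1 KO library and was 5.54-fold lower (interval 4.50 to 6.88). The ligase and the protease thus went in opposite directions while their substrate stayed within 3-fold. Of all tested genes, 12.8% were called higher and 11.7% lower. USP41, a near-identical copy of USP18, had 0 reads in both libraries.

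The OAS enzymes are activated by double-stranded RNA, and OAS1 and OAS2 were near the limit of detection. OAS1 had 0 parental reads and 1 CARM1 KO read, OAS2 had 0 and 2 reads, and OAS3 had 36 and 40 reads. A count of 0 allows up to 3 reads, or 0.0963 RPM in parental cells, so no fold is given for OAS1 and OAS2. OASL, which lacks the enzyme activity, had 5 and 46 reads, an 8.99-fold higher level (interval 3.58 to 29.0). RSAD2 (viperin) and CMPK2, adjacent genes that make antiviral nucleotides, had 1 and 1 reads and 0 and 0 reads. OAS1, OAS2, RSAD2 and CMPK2, which type I interferon induces strongly, were therefore at or near 0 in both libraries. The proapoptotic gene XAF1 had 6 and 1 reads and was also under the minimum.

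SAMD9 and SAMD9L, which restrict poxviruses and slow cell growth, lie side by side on chromosome 7. Both were higher in CARM1 KO cells, where 12.8% of all tested genes were called higher. SAMD9 had 392 reads in the parental and 2583 in the CARM1 KO library (6.44-fold, interval 5.79 to 7.17). SAMD9L had 48 and 441 reads (8.97-fold, interval 6.65 to 12.35). The other effectors lay within 3-fold. BST2 (tetherin), which holds budding virus at the cell surface, had 731 and 1518 reads, a fold of 2.03. The exonuclease ISG20 had 20 and 58 reads, and its fold of 2.83 lay just inside the limit. TRIM22, a ubiquitin ligase, had 74 and 54 reads, and the interval of its fold held 1. PARP9 and PARP14, ADP-ribosyltransferases that act on STAT signalling, had 377 and 317 reads and 1180 and 1337 reads. These were among the members with the smallest differences, with folds of 0.821 and 1.11.

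The remaining induced genes showed both directions within 1 gene pair. IFI44 and IFI44L, related genes that lie next to each other on chromosome 1, are both induced by type I interferon. IFI44 had 202 reads in the parental and 1542 in the CARM1 KO library, a 7.46-fold higher level (interval 6.43 to 8.68). IFI44L had 27 and 9 reads, a 3.07-fold lower level whose interval (1.40 to 7.42) reached well below 3-fold. IFI6, a mitochondrial survival protein, had 139 and 430 reads, a fold of 3.02 at the edge of the threshold. IFI27 had 48 and 139 reads, a fold of 2.83. SP110, a nuclear body protein, had 75 and 173 reads, a fold of 2.25. The calls of IFI6 and IFI44L were lost with other scaling or a prior count.

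Levels between genes were compared as RPKM computed from the scaled counts, with the length taken as the union of annotated exons. On this scale the 38 members had a median level of 1.09 in parental and 1.27 in CARM1 KO cells, below the medians of 3.12 and 3.06 over the 14140 tested protein-coding genes. In parental cells the order began with IFITM1 (25.8), BST2 (21.3), EIF2AK2 (15.55) and IFIT1 (11.6). In CARM1 KO cells it began with BST2 (43.2), CGAS (25.6), IFI44 (23.7) and IFITM2 (14.9). IFITM1 stood at place 1 by level in the parental library and at place 16 in the CARM1 KO library. The order depends on the exon length used, and with the longest transcript IFITM1 and BST2 still led their libraries, IFITM3 stood at place 2 in parental and place 5 in CARM1 KO cells, and IFITM1 stood at place 14 in CARM1 KO cells. The summed level of all 43 members was 152 in parental and 212 in CARM1 KO cells, so the total differed less than many single members did.

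Members within 500000 bases of each other formed 10 clusters, and the nearest protein-coding genes with at least 50 reads on either side were read beside them. In the IFIT cluster, which spans 137912 bases on chromosome 10, the genes around it also had fewer reads in CARM1 KO cells. FAS, before it, had 912 and 313 reads, LIPA, which overlaps it, had 2968 and 932 reads, and PANK1, after it, had 734 and 159 reads. Their folds were 0.335, 0.307 and 0.212, and that of IFIT1 was 0.101. The IFITM genes and IRF7 had outer neighbours that differed little, since PGGHG had a fold of 1.17 and DEAF1 a fold of 1.25. The 8 genes between them had folds from 0.509 for SIGIRR to 4.27 for PKP3.

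At SAMD9 and SAMD9L, the flanking genes CDK6 and VPS50 had folds of 4.23 and 2.14, and at MX1 and MX2 the flanking genes BACE2 and RIPK4 had folds of 2.15 and 23.4, the latter from 2 and 48 reads. Both flanks thus lay on the same side as the members at these clusters and at the IFIT cluster. Of all 18563 tested genes, 9081 had a fold above 1 and 9482 a fold below 1. Flanks on a shared side are therefore common and no result about these clusters. HERC5 and HERC6 lay above 2-fold while their neighbours PPM1K and PYURF had folds of 0.354 and 0.614. At 4 other clusters the flanks lay on opposite sides of 1. GBP3 and GBP5 beside GBP1 and GBP2 had folds of 6.58 and 0.198. PTGFR and ADGRL2 on either side of IFI44L and IFI44 had folds of 9.63 and 0.295, and ADGRL2 lay 2642069 bases away. PTPN11 and DDX54 beside the OAS genes had folds of 1.15 and 0.666. RNF144A and COLEC11 beside the nearly silent CMPK2 and RSAD2 had folds of 5.06 and 0.0257, and COLEC11 lay 3288467 bases away. Around PARP9 and PARP14, the folds of KPNA1, DTX3L, PARP15 and HSPBAP1 lay between 1.10 and 1.61. DNA copy number was not measured, and its part in these values was not tested.

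**Figure D3:**
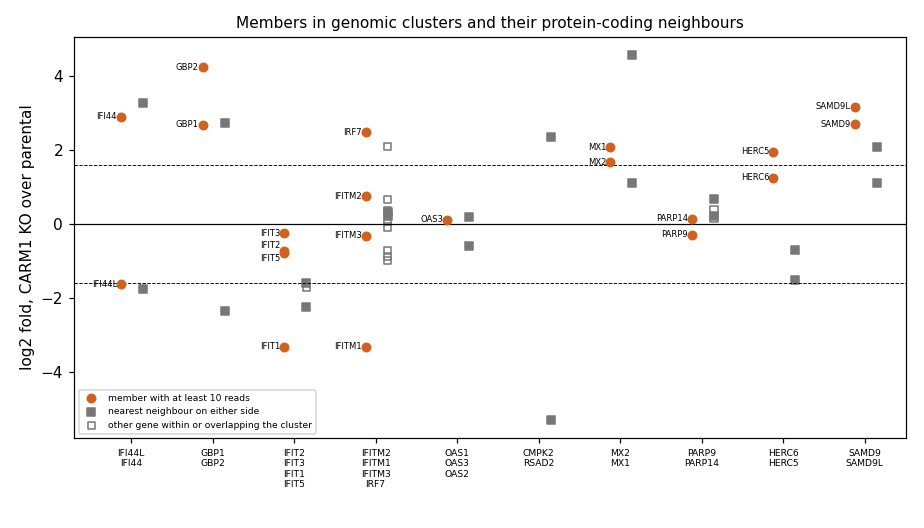
Log2 fold of CARM1 KO over parental for members in genomic clusters (circles) and for protein-coding neighbours that are no members (squares, filled for the nearest on either side and open for genes within or overlapping the cluster), with dashed lines at 3-fold. IFIT1 and IFITM1 lie near -3.3, and the squares beside the IFIT genes lie between -1.58 and -2.24.

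The pathway upstream of the list was examined in 45 other genes, of which 44 matched the annotation and 31 had at least 10 reads. Of these, 7 were higher and 1 was lower in CARM1 KO cells, and their median log2 fold was 0.41. These are 22.6% and 3.23% of the 31, beside 12.8% and 11.7% of all tested genes. The interferon ligands among these genes were at or near 0 in both libraries. Other ligands, such as the IFNA genes, were not among them and were not examined. IFNB1, IFNL1, IFNL2 and IFNL3 had 0 reads in either, IFNG had 1 and 0 reads, IFNK had 0 and 1, and IFNE, an epithelial type I interferon, had 1 and 11 reads. IFNE was thus among the 7 genes called higher, with a fold of 10.7 that rests on few reads. The interval of the IFNE fold began at 1.56. The receptor subunits IFNAR1 and IFNAR2 had folds of 1.12 and 1.37. JAK1, the kinase shared by the interferon receptors, had 2134 and 7249 reads, a 3.32-fold higher level (interval 3.16 to 3.48).

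The other pathway genes past 3-fold were a sensor, a regulatory factor, effectors and an inhibitor. IFI16, a nuclear DNA sensor, had 256 and 1431 reads (5.46-fold, interval 4.78 to 6.26), and TREX1, the nuclease that degrades cytosolic DNA, had 64 and 266 reads (4.06-fold, interval 3.08 to 5.42). IRF5 had 3 and 75 reads, a 24.4-fold higher level with a lower bound of 8.04-fold. NLRC5, the activator of MHC class I genes, had 21 and 137 reads, a fold of 6.37. UBA7, the enzyme that activates ISG15, had 7 and 28 reads, a fold of 3.91, while UBE2L6, the next enzyme of that route, had 1234 and 453 reads and was 2.79-fold lower. The lower gene past 3-fold was SOCS3, a feedback inhibitor of JAK kinases, with 1478 and 429 reads, 3.53-fold lower (interval 3.17 to 3.94). The genes named here within 3-fold were chosen after their values were seen. MAVS, the adaptor of RNA sensors, had 1043 and 1078 reads. DDX58 (RIG-I) had 479 and 1031 reads, a fold of 2.10, and IRF3 had 529 and 229 reads, 2.37-fold lower. ADAR, which edits double-stranded RNA, had 10613 and 4625 reads, 2.35-fold lower.

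**Figure D4:**
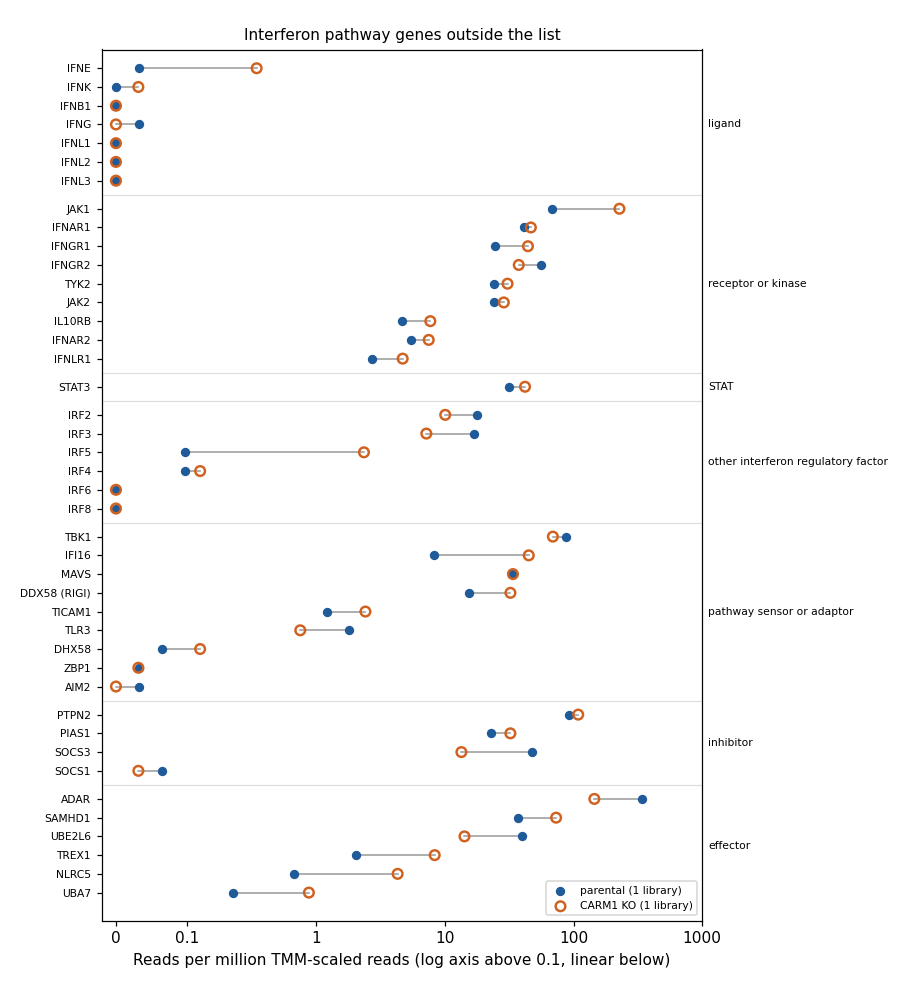
RPM (TMM-scaled) of 42 interferon pathway genes outside the list in the parental (filled) and CARM1 KO (open) library, grouped by role, on an axis that is logarithmic above 0.1 and linear below. The ligands drawn stay near 0 in both libraries, with IFNE at 0.032 RPM in parental and 0.345 RPM in CARM1 KO cells. The points of MAVS coincide, and JAK1, IRF5, IFI16, TREX1 and NLRC5 lie to the right in CARM1 KO cells.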

How the data were processed

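RNA-Seq was analysed from 1 parental and 1 CARM1 KO library. The authors used bowtie2 for alignment (hg19) and RSEM for quantification over Ensembl genes, and the deposited values are whole-number counts with no normalization. The labels name RSEM 1.2.3, and the study's methods name another version. Reads shared by similar genes are apportioned by RSEM. The ScriptSeq kit marks strand, and the strand setting and the Ensembl release are not given in the sources used here. Depth was 30741953 and 32300391 reads.

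Identifiers were matched to GENCODE lifted to GRCh37 for 55501 of 57736 genes. IKBKE and PECAM1 did not match. Of the pathway genes, 2 are counted but not reported here by name or drawn. Counts were scaled with TMM in edgeR 4.0.16 under R 4.3.3, and the steps were tested on simulated data. Folds were computed for the 18563 genes whose summed count was 10 or more, with a count of 0 set to 3 reads, and called above 3-fold. A quasi-likelihood test in edgeR has no residual degrees of freedom here. Exact 95% intervals came from scipy 1.17.1. Alternatives were library size, DESeq2 1.42.0 size factors, upper-quartile scaling, minimums of 1 and 50 reads, a prior count of 2, a 2-fold threshold, whole intervals past 3-fold, protein-coding genes only, exon length from the longest transcript and a looser motif.

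The members, lists, test and rule for named genes were chosen with earlier results of these data known. The rule names members with at least 10 reads or with 0 to 3 reads in 1 library, pathway genes past 3-fold and 1 per role (further pathway genes were named after their values were seen), CARM1, and the nearest neighbours of clusters. The close copies GBP3, IFIT1B and USP41 and the markers were named beside them, and XAF1 was named to account for all members.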

Additional observations from a re-analysis of the deposited data

How the results depend on the processing

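The count of higher members was 13 to 14 and that of lower members 3 to 5 under every alternative of scaling, minimum reads and prior count. Of the 38 members, a 2-fold threshold gave 21 higher and 4 lower, and whole intervals past 3-fold gave 11 and 3. These counts are to be read beside those of all tested genes at the same thresholds, given below. The median log2 fold of the members kept its direction and lay between 1.13 and 1.201 with other scaling, a minimum of 50 reads or a prior count of 2. It became 0.88 with a minimum of 1 read, which adds OAS1, OAS2, RSAD2 and XAF1. IFI6 lost its call with library size only, a prior count of 2 and whole intervals, and IFI44L lost its call with DESeq2 size factors, a prior count of 2 and whole intervals. MX1 and MX2 lost theirs with whole intervals alone. No member reversed. Of all 18563 tested genes, 2372 were higher and 2175 lower. A 2-fold threshold gave 3631 and 3537, whole intervals past 3-fold gave 1292 and 1234, a minimum of 50 reads gave 1219 lower and protein-coding genes only gave 1303 lower. Of the 31 pathway genes with at least 10 reads, 8 were past 3-fold. By direction, 22.6% were higher and 3.23% lower, beside 12.8% and 11.7% of all tested genes. At 2-fold there were 14, to be read beside the 3631 and 3537 of all tested genes. The share of member promoters with the ISRE core was 62.8% and became 81.4% with 1 fixed base free, when 33.0% of all promoters matched. With length from the longest transcript, 62 of 76 levels per length of members moved beyond their counting interval, while folds do not use length. No paired analysis was possible because each group holds a single library, and leaving out a library would empty its group. Depth limits OAS1, OAS2, RSAD2, CMPK2, XAF1 and the examined interferon ligands other than IFNE, where differences were not detectable.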
